A study of Mus musculus with 12 samples.

Results

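The miR-29 family on this mouse miRNA array has 3 members, miR-29a, miR-29b and miR-29c, out of 650 miRNAs with probes. They were chosen by name, as the non-control spots assigned to mmu-miR-29a, mmu-miR-29b or mmu-miR-29c, without regard to their signal. Each member had 2 probes with usable signal, and all 3 members passed the filter on low signal and were tested together with the other 173 miRNAs that did. The family was followed in mouse embryonic fibroblasts (MEFs) of C57BL/6 background that were either wild type for ATF6a (ATF6aWT) or deficient in it (ATF6aKO). ATF6a is a sensor of the endoplasmic reticulum, which is cleaved under stress and then acts as a transcription factor of the unfolded protein response. Cells of each genotype were left untreated or received 2 ug/mL tunicamycin for 12 h or for 24 h. Tunicamycin blocks N-linked glycosylation, so that unfolded proteins build up in the endoplasmic reticulum. Each of these 6 groups had 2 arrays, which the submitters call independent experiments. The labels do not say how many embryos or lines each genotype stands for, and the array has no probe for the Atf6 transcript, so the genotype could not be checked in these data.

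MicroRNAs of the miR-29 family guide the silencing complex to messenger RNAs that pair with their seed, the short stretch near the 5′ end. Their best known targets in fibroblasts are messenger RNAs of the extracellular matrix, among them collagens, fibrillin and elastin. These matrix proteins fold in and leave through the endoplasmic reticulum, the compartment that tunicamycin disturbs. The mature strands come from the 3′ arms (-3p) of their hairpins, and the strands of the 5′ arms, called passenger strands and marked with a star in the older names used on the array, are usually degraded.

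The mature sequences, from the RefSeq table of the GRCm38.p6 assembly, are shown because the members differ by so few bases that their probes have to tell near-identical RNAs apart. Capitals mark the seed, bases 2 to 8.
miR-29a-3p: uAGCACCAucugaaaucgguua
miR-29b-3p: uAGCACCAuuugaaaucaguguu
miR-29c-3p: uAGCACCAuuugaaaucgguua

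All 3 members carried the seed AGCACCA, and they were the only 3 of the 1679 mature mouse miRNAs in that table to carry it (0.179%). Counted from the 5′ end, miR-29c differed from miR-29a by C10U alone, with 21 of 22 positions identical. From miR-29a to miR-29b the changes were C10U, G18A, U21G and A22U, which left 18 of 22 positions identical, and miR-29b has 1 base more. From miR-29b to miR-29c they were A18G, G21U and U22A, with 19 of 22 positions identical. How far the probes of one member also bind another was not tested, and the probes' sequences were not used here.

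The family is encoded in 2 clusters. The hairpin Mir29a lies at chr6:31062660-31062747 and Mir29b-1 at chr6:31063023-31063093, both on the minus strand of GRCm38.p6, with 275 bases between them and within no other gene of the RefSeq table. Mir29b-2 at chr1:195037040-195037120 and Mir29c at chr1:195037547-195037634 lie on the plus strand, 426 bases apart and within the span of the long noncoding RNA gene A330023F24Rik. Mature miR-29b is the same sequence from both clusters, so its probes cannot tell Mir29b-1 from Mir29b-2. The miR-29b hairpins are shown because their 5′ arms, the passenger strand described further on, do differ. Capitals mark the mature 3′ strand.
Mir29b-1: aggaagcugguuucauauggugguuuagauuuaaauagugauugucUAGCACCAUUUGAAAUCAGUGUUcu
Mir29b-2: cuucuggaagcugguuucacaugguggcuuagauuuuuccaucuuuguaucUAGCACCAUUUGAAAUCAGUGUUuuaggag

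The signal is a fluorescence intensity, and a level below is log2 of a miRNA's signal after division by its array's 75th percentile over 87 probes that were well above background everywhere. The number of miRNAs well above background ranged from 86 to 172 per array and was lowest, at 86 to 109, on 3 of the 4 treated arrays of replicate 2, which were scanned in a run of their own. The 4 untreated arrays shared 1 slide and the 8 treated arrays the other, which means that slide and treatment cannot be told apart. Wild type arrays lay in row 1 and ATF6aKO arrays in row 2 of each slide, so genotype and slide row cannot be told apart either. The 4 arrays of the 12 h groups carried a dim patch. Where bright probes had spots both inside and outside, the darkest tile medians inside lay between -8.04 and -6.91 on the log2 scale. The tiles that were dim on any array, 36 of 144 or 25.1% of the miRNA spots, were therefore left out on all 12 arrays. A 24 h array had at most 1 such tile. Of the mesenchymal marker miRNAs, 8 of 9 were well above background on some array and 6 on all 12, with miR-145 on none. None of the epithelial (6), blood (5), endothelial (2), neural (3) and liver (1) markers was well above background on any array, while the muscle marker miR-206 was so on 3 arrays and the stem cell marker miR-294 on 2.

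The level of miR-29a, which with Mir29b-1 is encoded on chromosome 6, stayed within a span of 0.71 over all 12 arrays. In untreated wild type cells it was 0.27 in replicate 1 and 0.33 in replicate 2. With tunicamycin it was 0.55 and -0.03 at 12 h and 0.22 and 0.15 at 24 h. In ATF6aKO cells it was 0.52 and 0.54 without treatment, 0.68 and 0.08 at 12 h, and 0.65 and 0.43 at 24 h. The 12 h replicates lay farther apart than any other pair, in both genotypes, and every ATF6aKO array exceeded the wild type array of the same time and scanning run. Ordered by their means, the groups ran from ATF6aKO at 24 h (0.54 ± 0.15, SD, n = 2) through untreated ATF6aKO (0.53 ± 0.016) and ATF6aKO at 12 h (0.38 ± 0.42) to untreated wild type (0.30 ± 0.041), wild type at 12 h (0.26 ± 0.41) and wild type at 24 h (0.19 ± 0.047). Each neighbour in this order overlapped the next.

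The level of miR-29b, which both clusters encode, varied least, with a span of 0.36. Untreated wild type cells had -0.42 on both arrays. After tunicamycin the wild type values were -0.30 and -0.42 at 12 h and -0.30 and -0.40 at 24 h. The ATF6aKO values were -0.15 and -0.06 untreated, -0.17 and -0.38 at 12 h, and -0.08 and -0.41 at 24 h. The untreated ATF6aKO arrays were above every wild type array, whereas the treated ATF6aKO arrays split by scanning run. In order, untreated ATF6aKO (-0.11 ± 0.061, SD, n = 2) came first, then ATF6aKO at 24 h (-0.24 ± 0.24) and 12 h (-0.28 ± 0.15), wild type at 24 h (-0.35 ± 0.075) and 12 h (-0.36 ± 0.087), and untreated wild type (-0.42 ± 0.0032). Here too each neighbour overlapped the next.

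The level of miR-29c, encoded downstream of Mir29b-2 on chromosome 1, was well above background on only 8 of 12 arrays, and its span was 1.1. Untreated wild type cells had -3.84 and -3.88, and untreated ATF6aKO cells -3.53 and -3.44. The treated wild type values were -3.68 and -4.22 at 12 h and -3.87 and -3.81 at 24 h. The treated ATF6aKO values were -3.63 and -4.44 at 12 h and -3.34 and -3.65 at 24 h. In each treated group the array of replicate 2 was not well above background, and both 12 h groups had their lower value there. It therefore passed the filter on low signal only through the untreated groups. By group mean, untreated ATF6aKO (-3.49 ± 0.063, SD, n = 2) and ATF6aKO at 24 h (-3.49 ± 0.22) stood above wild type at 24 h (-3.84 ± 0.043) without overlap. Untreated wild type (-3.86 ± 0.028), wild type at 12 h (-3.95 ± 0.38) and ATF6aKO at 12 h (-4.04 ± 0.57) followed, each overlapping its neighbour.

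**Figure D1:**
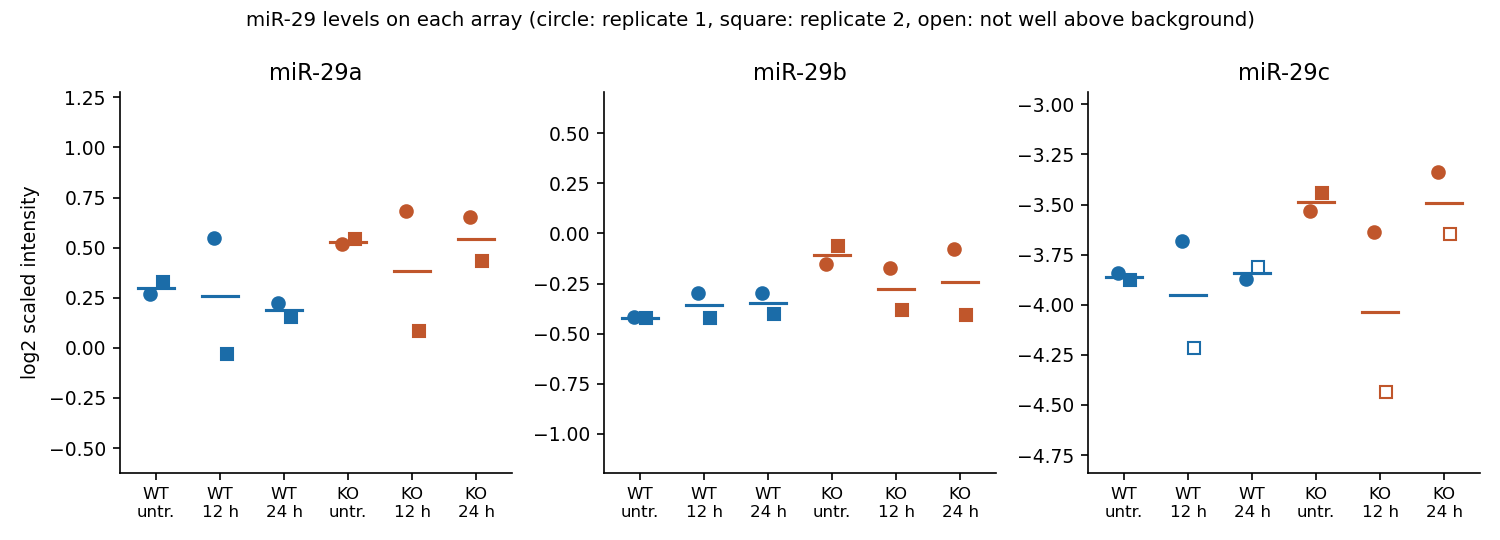
Level of miR-29a, miR-29b and miR-29c on each of the 12 arrays (log2 of scaled intensity; circle replicate 1, square replicate 2, bar the group mean, open symbols where the miRNA was not well above background), in panels of equal vertical span but their own range. The replicates lie far apart at 12 h for miR-29a, and the arrays of replicate 2 in the treated groups are not well above background for miR-29c.

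The first question was whether 12 h or 24 h of tunicamycin moved the family. In wild type cells, miR-29a differed from untreated cells by -0.04 ± 0.23 (SE) at 12 h and -0.11 at 24 h. For miR-29b the differences were 0.06 ± 0.12 and 0.07. For miR-29c they were -0.09 ± 0.27 and 0.02. None of these passed the test (limma, adjusted p from 0.748 to 1), and no member at either time had an unadjusted p under 0.05. By comparison, limma called 71 of the 176 miRNAs at 12 h (40.3%) and 69 at 24 h (39.2%) in these cells.

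Whether the 2 arrays of a group overlapped those of the other is a coarser view. At 12 h the wild type groups overlapped for all 3 members, against 68.8% of all miRNAs whose groups did not. At 24 h they did not overlap for 2 of 3, miR-29a lower and miR-29b higher with tunicamycin, again against 68.8% overall. The median difference of the members was -0.04 at 12 h and 0.02 at 24 h, beside -0.09 and -0.15 over all miRNAs tested.

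In ATF6aKO cells the 12 h differences were -0.15 for miR-29a, -0.17 for miR-29b and -0.55 ± 0.27 for miR-29c. The miR-29c groups did not overlap, but its adjusted p was 0.25 (limma), and 1 of the treated arrays was not well above background. Without replicate 1 of ATF6aKO at 12 h, the array on which miR-29c was well above background, the difference was -0.95 (limma, adjusted p = 0.0231), beside 35.8% of all miRNAs called, with only the array not well above background left in that group. At 24 h the differences were 0.01, -0.13 and -0.01. No member was called by limma at either time and none had an unadjusted p under 0.05, where 15.3% of all miRNAs were called at 12 h and 8.52% at 24 h. The ATF6aKO groups did not overlap for 2 of 3 members at 12 h (53.4% of all miRNAs) and for 0 of 3 at 24 h (55.7%). The members' median was -0.17 at 12 h and -0.01 at 24 h, beside -0.06 and -0.02 over all miRNAs.

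The intervals show what a response could still have been. Over both genotypes and both times the 95% intervals reached from -0.70 to 0.57 for miR-29a and from -0.46 to 0.36 for miR-29b. For miR-29c they reached from -1.20 to 0.67. A fall of miR-29c by 1 on the log2 scale was inside its interval in ATF6aKO cells at 12 h. The intervals cover the spread between arrays within a group and not any offset between the slides.

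Between 12 h and 24 h of treatment, where all arrays share 1 slide, no member was called by limma in either genotype and none had an unadjusted p under 0.05. The 12 h arrays lay in columns 1 and 4 of that slide and the 24 h arrays in columns 2 and 3. Time and slide column therefore cannot be told apart. Of all miRNAs, 0.568% were called in wild type and 3.98% in ATF6aKO cells. The differences were -0.07, 0.01 and 0.11 for miR-29a, miR-29b and miR-29c in wild type cells, and 0.16, 0.04 and 0.54 in ATF6aKO cells. All these groups overlapped for all 3 members, beside 25% and 20.5% of miRNAs whose groups did not. Within the scanning runs the sign was not stable for miR-29a. It was -0.32 in run 3 and 0.18 in run 4 in wild type cells, and -0.03 and 0.35 in ATF6aKO cells. Without scanning run 4 the wild type value of -0.32 had an adjusted p of 0.0479 (limma), with 13.1% of all miRNAs called, but each treated group then had 1 array and the spread came from the 4 untreated arrays alone. With the scanning run as a block no member was called (limma), while the calls over all miRNAs went from 1 to 7 in wild type and from 7 to 12 in ATF6aKO cells. On the treated arrays of replicate 2, those of run 4, miR-29c was not well above background. Its level on the ATF6aKO array at 12 h, -4.44, lay under the lowest probe well above background there, -2.77. Without replicate 1 of ATF6aKO at 12 h, only that array was left in the group. The miR-29c difference from that fit therefore cannot decide whether miR-29c rose. For miR-29c the wild type values were -0.19 and 0.41 and the ATF6aKO values 0.30 and 0.79, and without replicate 1 of ATF6aKO at 12 h the ATF6aKO difference was 0.94 (limma, adjusted p = 0.0338), with 19.9% of all miRNAs called.

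The second question was whether cells that lack ATF6a differ from wild type cells in the family. In untreated cells all 3 members were higher in the ATF6aKO arrays than in the wild type arrays, with no overlap for any of them, as for 67% of all miRNAs. The differences were 0.23 ± 0.23 (SE) for miR-29a, 0.31 ± 0.12 for miR-29b and 0.37 ± 0.27 for miR-29c. None passed the test with the spread shared over all groups. The adjusted p (limma) was 0.606 for miR-29a and 0.438 for miR-29c. For miR-29b it was 0.123, with an unadjusted p of 0.0372, the only one under 0.05 among the 33 tests of the members. The 95% intervals ran from -0.32 to 0.78 for miR-29a, from 0.02 to 0.60 for miR-29b and from -0.28 to 1.02 for miR-29c. Of all miRNAs, 26.7% were called in this comparison, and the median over all of them was -0.09 against 0.31 for the members.

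This genotype difference depended on which arrays set the spread. The untreated pairs were close to each other, with an SD of the replicate difference over all miRNAs of 0.188 in wild type and 0.198 in ATF6aKO cells, against 0.702 to 1.19 in the 4 treated groups. Fitted on the 4 untreated arrays alone, limma called all 3 members, with an adjusted p of 0.0159 for miR-29a, 0.0150 for miR-29b and 0.0136 for miR-29c. The same fit called 51.7% of all miRNAs, against 26.7% with the spread of all 12 arrays. Replicate numbers and scanning runs coincide within a slide, and with the run as a block miR-29b was called at 0.31 (limma, adjusted p = 0.0238), beside 31.2% of all miRNAs. With scaling to the median of probes well above background it was called at 0.26 (limma, adjusted p = 0.0343), beside 31.8% of all miRNAs. The direction was the same in all alternatives run for miR-29a (28 of 28) and miR-29b (28 of 28), and in 26 of 27 for miR-29c, which was -0.12 after normexp background correction. Many of these alternatives could not change it. Fits that left out treated arrays, used only the groups compared or added a block return the same difference of group means.

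After treatment the genotype differences were 0.12, 0.08 and -0.09 at 12 h and 0.35, 0.11 and 0.35 at 24 h for miR-29a, miR-29b and miR-29c. None was called by limma and none had an unadjusted p under 0.05, beside 10.8% of all miRNAs called at 12 h and 9.66% at 24 h. The genotypes overlapped for all 3 members at 12 h (25.6% of all miRNAs did not overlap), and they did not overlap for miR-29a and miR-29c at 24 h (47.2% of all miRNAs). The members' median was 0.08 at 12 h and 0.35 at 24 h, against -0.09 and 0 over all miRNAs. Without scanning run 4, limma called miR-29a at 0.43 (adjusted p = 0.0172) and miR-29c at 0.53 (adjusted p = 0.0222) at 24 h, beside 24.4% of all miRNAs, from 1 array per group and with the spread of the untreated arrays. With the scanning run as a block no member was called (limma), and the calls over all miRNAs went from 17 to 28.

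Each scanning run held both genotypes, so the difference can be read in 6 pairs of arrays. These pairs share slides and runs and are not 6 replicates. How many of all miRNAs were higher in as many pairs was not counted. For miR-29a the ATF6aKO array was higher in 6 of 6 runs and times, by 0.25 and 0.21 untreated, 0.14 and 0.11 at 12 h, and 0.43 and 0.28 at 24 h. For miR-29b it was higher in 5 of 6, by 0.27 and 0.36 untreated, 0.12 and 0.04 at 12 h, and 0.22 at 24 h in run 3, the sixth value being -0.0060. For miR-29c it was higher in 5 of 6, by 0.31 and 0.44 untreated, 0.05 and -0.22 at 12 h, and 0.53 and 0.16 at 24 h. The values -0.22 and 0.16, both of run 4, compare arrays on which miR-29c was not well above background. ATF6aKO arrays always lay in the other slide row, and the part of slide row in these values was not tested.

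**Figure D2:**
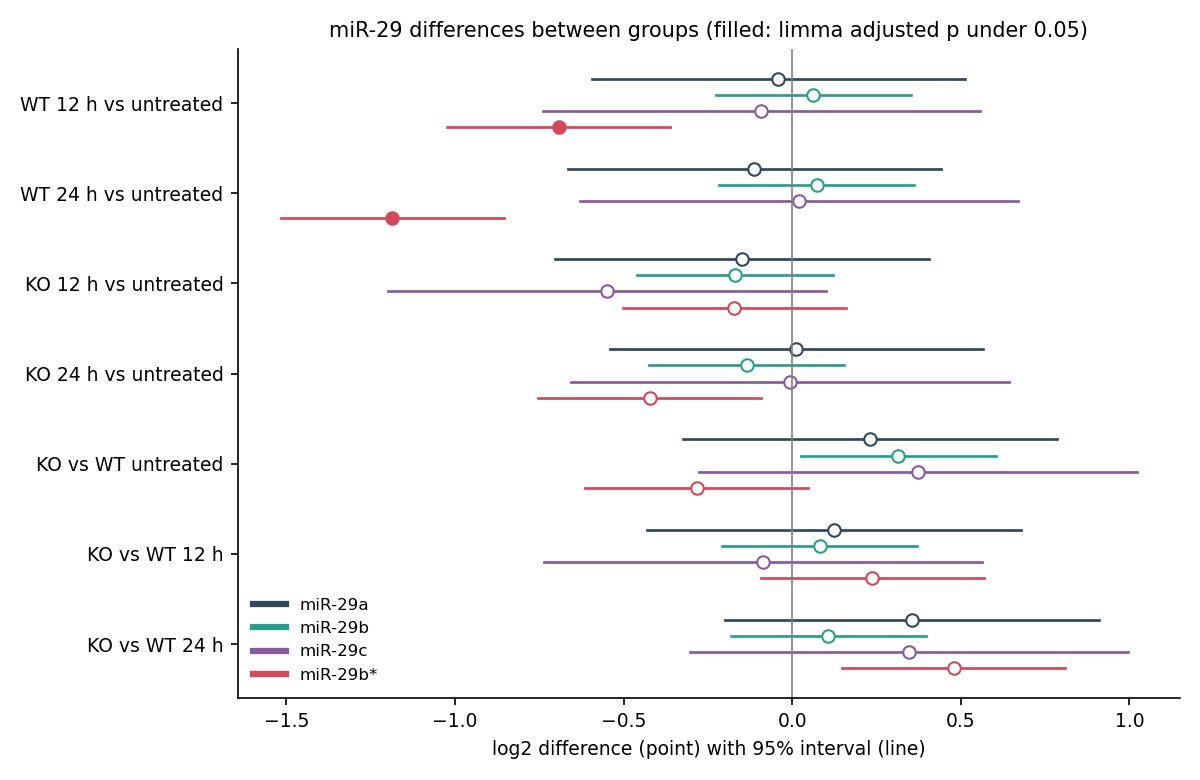
Differences of miR-29a, miR-29b, miR-29c and the passenger strand miR-29b* in the 4 comparisons with untreated cells and the 3 of the genotypes (log2, points with 95% intervals from limma, filled where the adjusted p was under 0.05). The intervals of the 3 mature strands include 0 in each but untreated ATF6aKO against wild type for miR-29b, and the filled points are the 2 of miR-29b* in wild type cells.

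The third question, set by the series' design, was whether the response depended on ATF6a. The 12 h response in ATF6aKO minus that in wild type cells was -0.11 for miR-29a, -0.23 for miR-29b and -0.46 for miR-29c. At 24 h it was 0.12, -0.21 and -0.03. No member was called by limma at either time and none had an unadjusted p under 0.05, where 6.25% of all miRNAs were called at 12 h and 13.1% at 24 h. The members' median was -0.23 and -0.03, beside 0.06 and 0.16 over all miRNAs. Over all 11 comparisons, the 33 tests of the 3 members gave 0 calls (limma) and 1 unadjusted p under 0.05. In 9 of the 27 pairs of a member and a comparison of 2 groups the arrays did not overlap, against 48% of all such pairs over all miRNAs.

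The 2 probes of each member gave separate readings of the same RNA. In untreated cells, ATF6aKO minus wild type was 0.22 and 0.24 for the miR-29a probes, 0.39 and 0.23 for the miR-29b probes, and 0.36 and 0.38 for the miR-29c probes. They had opposite signs in 3 of 11 comparisons for miR-29a and in 2 of 11 each for miR-29b and miR-29c. The largest gap between them was 0.24 for miR-29a, 0.23 for miR-29b and 0.21 for miR-29c. The treatment differences of miR-29a and miR-29b in wild type cells were smaller than these gaps.

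Among miR-29 spots not flagged as outliers, very low ones inside the dim patch region were found on 1 array. On the first wild type array at 12 h, 19 of the 60 miR-29 spots lay in the region left out, and 12 of these were below 0.2 of the median of their probe's other spots. On the other three 12 h arrays 43 miR-29 spots lay in that region and none was that low, and on the other 8 arrays none of 150 was. With all spots, one miR-29b probe on the first wild type array at 12 h averaged 971 intensity units with a coefficient of variation of 84.7%, against 1594 and 14.3% outside the patch. One miR-29a probe gave 326 against 457 and one miR-29c probe 36.0 against 47.8. With the patch kept on all arrays, the wild type 12 h difference was -0.27 for miR-29a, -0.10 for miR-29b and -0.35 for miR-29c, none of them called by limma.

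**Figure D3:**
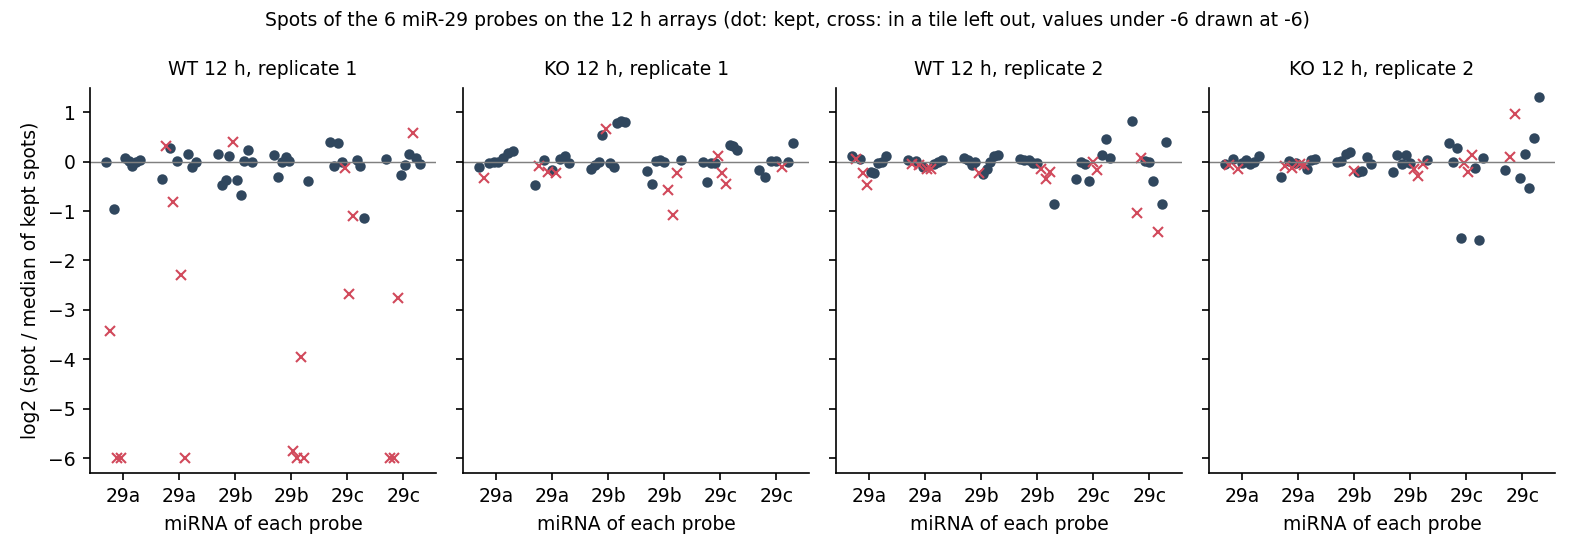
Single spots of the 6 miR-29 probes on the 12 h arrays, as log2 of the spot over the median of its probe's kept spots (dots for spots kept, crosses for spots in the region left out, values under -6 drawn at -6). Spots flagged as outliers are not drawn. On the first wild type array 12 of the 19 crosses lie below 0.2 of the kept median, and on the other 3 arrays none of the crosses drawn does.

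The passenger strand of miR-29b passed the test after tunicamycin in wild type cells, where its mature strand did not, which is not a test of the difference between them. The array's miR-29b* was tested through 1 probe, read by 2 spots outside the patch region, and was well above background on 8 of 12 arrays, the exceptions being the treated arrays of replicate 2. It thus passed the filter on low signal only through the untreated groups, where it was high, and such a choice favours falls with treatment among the miRNAs tested. The array's name does not say which 5′ arm the probe reads, so both are shown. Capitals mark bases 2 to 8, and the arms share 19 of 21 positions when miR-29b-2-5p is offset by 1 base.
miR-29b-1-5p: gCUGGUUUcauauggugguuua
miR-29b-2-5p: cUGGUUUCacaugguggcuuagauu

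In untreated wild type cells the miR-29b* level was -3.46 and -3.55. It was -4.00 and -4.40 at 12 h of tunicamycin and -4.57 and -4.81 at 24 h, near the floor of -4.86 below which no level was read. In ATF6aKO cells it was -3.84 and -3.73 untreated, -3.98 and -3.94 at 12 h, and -4.16 and -4.27 at 24 h. On the treated arrays of replicate 2 the lowest probe well above background stood between -3.54 and -2.77. Every miR-29b* level on those arrays lay under that limit of its own array. Both genotypes had their highest values untreated, no treated array reached an untreated array of its genotype, and the wild type spread from first to last group was the wider. By group mean the order was untreated wild type (-3.51 ± 0.060, SD, n = 2), untreated ATF6aKO (-3.79 ± 0.078), ATF6aKO at 12 h (-3.96 ± 0.031), wild type at 12 h (-4.20 ± 0.28), ATF6aKO at 24 h (-4.21 ± 0.081) and wild type at 24 h (-4.69 ± 0.17). Only wild type at 12 h and ATF6aKO at 24 h overlapped as neighbours.

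In wild type cells miR-29b* fell by 0.69 ± 0.14 (SE) at 12 h (limma, adjusted p = 0.00786, 95% interval -1.02 to -0.36) and by 1.19 ± 0.14 at 24 h (adjusted p = 0.000847, -1.52 to -0.85). In ATF6aKO cells the differences were -0.17 at 12 h (adjusted p = 0.448) and -0.42 at 24 h (adjusted p = 0.108). The 24 h responses themselves differed by 0.76 ± 0.20 (limma, adjusted p = 0.0479, 95% interval 0.29 to 1.23), and the 12 h responses by 0.52 (adjusted p = 0.186). The calls were not stable. With all spots kept the wild type differences were -0.89 and -1.0, both still called, while the 24 h difference of responses was 0.52 (adjusted p = 0.161). That call was also lost in 10 of the 12 fits that left out 1 array, at an adjusted p of 0.0535 to 0.165, and was kept only without either wild type 12 h array. The wild type 12 h call was lost without replicate 1 of untreated wild type, at -0.65 (adjusted p = 0.0506). After normexp correction the wild type differences were -0.19 at 12 h and 0.12 at 24 h, neither called by limma. Set against the mature strand on the same array, the mean miR-29b* minus miR-29b difference went from -3.09 untreated to -3.84 and -4.34 in wild type cells, and from -3.68 to -3.68 and -3.97 in ATF6aKO cells. The other passenger strands gave no test, since miR-29a* was well above background on 1 array and miR-29c* on 0.

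**Figure D4:**
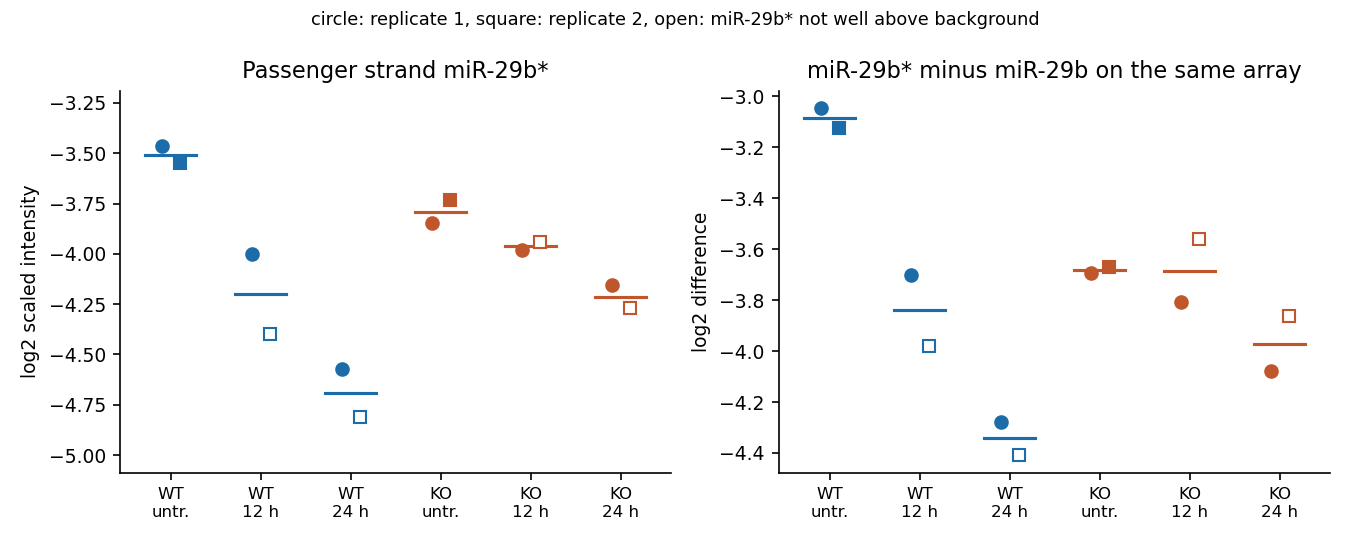
Level of the passenger strand miR-29b* on each array (left, log2 of scaled intensity) and miR-29b* minus miR-29b on the same array (right, log2), with circles for replicate 1, squares for replicate 2, bars for group means and open symbols where miR-29b* was not well above background. In wild type cells the arrays of each time lie below those of the time before in both panels.

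The deposited series table carries the authors' log2 values, and for this family some of them hold more than the named miRNA. Each deposited value was the log2 of the sum that the software wrote for that miRNA on that array, to within 1.54e-06. For miR-29b* that sum matched, on all 8 arrays where the software detected it, the sum of the previous detected miRNA in the list plus some or all of the strand's own probes. The match was close and not exact, and which of the probes were added was not checked. On the first untreated wild type array the probes of miR-29b* added up to 14.5 intensity units, the sum for miR-29b was 651, and the sum given for miR-29b* was 663, a deposited value of 9.37. The same held for miR-29a* on 3 of 3 arrays and for miR-29c on 1 of 10 arrays, but for miR-29a and miR-29b on 0 of 12. That 1 array was the second of wild type at 24 h, where the miR-29c probes added up to 18.7, the sum for miR-29b was 330.1, and the sum given for miR-29c was 340.5, or 8.41 in the deposited table. Between 25.7% and 36.0% of the detected miRNAs on an array had a sum above 1.5 times that of their own probes. All levels in the preceding paragraphs come from the spots and not from these sums.

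**Figure D5:**
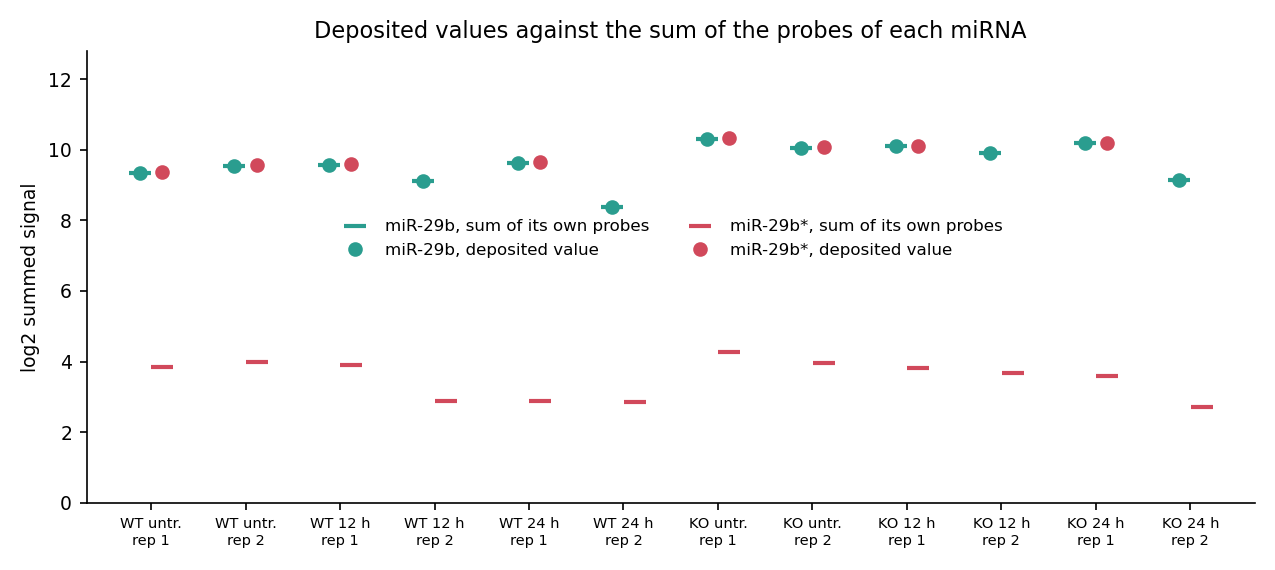
Deposited series value (points) and log2 of the summed signal of the miRNA's own probes (bars) for miR-29b and miR-29b* on each array. The 8 deposited values of miR-29b* lie beside those of miR-29b and far above the bars of their own probes, while all values of miR-29b lie on their bars.

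Of 26 miRNAs known to act on collagen, matrix or TGF-beta signalling genes, 17 were tested. In wild type cells none rose and 6 fell at 12 h of tunicamycin, with a median of -0.24 against -0.09 over all miRNAs, of which 40.3% were called. At 24 h 1 rose and 6 fell (-0.27 against -0.15, with 39.2% of all miRNAs called). These counts of 6 and 7 of 17 are near the share over all miRNAs. The largest falls at 12 h were those of miR-26a by 1.34 ± 0.23 (SE; limma, adjusted p = 0.00417), a miRNA of growth control, miR-143, known from smooth muscle and stroma, by 1.12, miR-199a-5p by 0.96 and the fibrosis-linked miR-21 by 0.88. At 24 h the same 4 fell by 1.55, 1.48, 1.31 and 1.05, and let-7b rose by 0.46. In ATF6aKO cells none rose, 4 fell at 12 h and 3 at 24 h, beside 15.3% and 8.52% of all miRNAs called. There miR-214, transcribed together with miR-199a, fell by 1.35 at 12 h and 1.45 at 24 h, and miR-199a-5p fell by 1.42 and 1.43. No member of the list was called by limma between the genotypes. Of all miRNAs, 26.7% were called there untreated, 10.8% at 12 h and 9.66% at 24 h. In the list 2 untreated, 1 at 12 h and 0 at 24 h had an unadjusted p under 0.05 (limma), beside 55, 37 and 33 of all 176 miRNAs. The summed scaled signal of the mesenchymal markers, of which several stand in this list, moved with it, from 30.3 to 31.0 in untreated and 15.6 to 18.7 in treated wild type cells, and from 25.4 to 27.4 in untreated and 14.2 to 20.2 in treated ATF6aKO cells. The 3 miR-29 members did not pass the test where these did, which is not a test of the difference between them.

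Of 14 miRNAs known from the unfolded protein response, 6 were tested. In wild type cells 1 rose and 2 fell at 12 h, and 1 rose and 3 fell at 24 h, where 40.3% and 39.2% of all miRNAs were called. The list's median was -0.11 and -0.37, beside -0.09 and -0.15 over all miRNAs. In ATF6aKO cells 1 rose and 1 fell at each time, where 15.3% and 8.52% of all miRNAs were called, with a median of -0.43 and -0.47 beside -0.06 and -0.02. The miRNA that rose was miR-1224 in each case, by 1.95 ± 0.23 (SE; limma) at 12 h and 2.29 at 24 h in wild type cells and by 2.22 and 4.06 in ATF6aKO cells. The p53-induced miR-34a fell by 0.64 and 0.46 in wild type cells, and miR-125b-5p by 1.01 at 24 h. In both genotypes limma called miR-222 lower at each time, by 0.28 in wild type and 0.86 in ATF6aKO cells. It was well above background only on the untreated arrays and passed the filter on low signal through them. Its differences were identical at 12 h and 24 h in each genotype, the treated levels being at the floor. They give the distance of the untreated level from the floor, and the size of any fall was not measured. In ATF6aKO against wild type cells limma called miR-96 at -0.66 untreated, -1.09 at 12 h and -1.06 at 24 h. It also called miR-222 at 0.58 untreated and miR-1224 at 1.55 at 24 h. Of all miRNAs, 26.7%, 10.8% and 9.66% were called there. On the same arrays, no 95% interval of miR-29a or miR-29b for tunicamycin against untreated cells went beyond -0.70 or 0.57. Those of miR-29c reached from -1.20 to 0.67. The wild type differences of miR-34a and miR-222 given above lie within both ranges. Of 4 array names that match pieces of abundant RNAs, all 4 were tested, and 2 rose at 12 h and 1 at 24 h in each genotype, against the same shares over all miRNAs. One of them, miR-690, rose at 12 h by 1.37 in wild type and 1.20 in ATF6aKO cells. Another, miR-689, rose by 1.15 and 1.41 at 12 h and was the one that rose at 24 h, by 2.07 and 2.75. It was well above background on 8 of 12 arrays and on 0 of the untreated wild type arrays. The summed scaled signal of all 4 was 3.29 to 3.93 in untreated, 3.67 to 4.82 at 12 h and 3.33 to 3.56 at 24 h in wild type cells. In ATF6aKO cells it was 2.59 to 3.20, 3.07 to 4.26 and 3.01 to 3.46, and their part in the miR-29 values was not tested.

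Among the 57 miRNAs well above background on all 12 arrays, those whose levels ran most like a member's were ranked by Pearson's r over the 12 arrays. For miR-29a they were miR-106b (0.924), miR-15a (0.871), miR-24 (0.850), miR-16 (0.840) and miR-25 (0.818). For miR-29b they were miR-24 (0.793), miR-106b (0.787), miR-29a itself (0.755), miR-221 (0.704) and miR-15a (0.648). For miR-29c they were miR-16 (0.880), miR-29a (0.866), miR-24 (0.866), miR-106b (0.850) and let-7g (0.835). The passenger strand miR-29b* had a different set, led by miR-125b-5p (0.857) and miR-21 (0.840), and its r was 0.333 with miR-29a and 0.148 with miR-29b. These are descriptions over arrays that share scaling, slides and scanning runs. On the same array, miR-29b minus miR-29a ranged from -0.86 to -0.39 and miR-29c minus miR-29a from -4.52 to -3.96, differences that mix probe brightness with abundance and so say nothing of which member is more abundant.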

How the data were processed

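Total RNA of 12 MEF cultures was labelled with Cy3 (100 ng each) and hybridised to one-colour mouse miRNA arrays, per the labels' protocols. The submitters' processing notes name Agilent Feature Extraction 10.7.1.1 as the scanner software. Its deposited spot intensities are linear, with background and spatial trend removed and arrays not scaled to each other, per the file headers. A series table with the authors' log2 values of summed signals served as an alternative.

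Of 13715 spots per array, 715 control spots, outliers and the tiles dim on any array (chosen after seeing the data) were left out. Spots of a probe were averaged, divided by the array's 75th percentile, floored at 0.0344 (log2 -4.86) and put on the log2 scale. Probes counted if 1 group or more had them well above background on both its arrays, 304 in all, and were averaged per miRNA. Group means were fitted over all 12 arrays with limma 3.58.1 in R 4.3.3, with 6 residual degrees of freedom, and Benjamini-Hochberg adjustment over 176 miRNAs within each comparison, threshold 0.05. The script was first tested on simulated data. The number of arrays limits the precision. Genotype, treatment and replicate came from the labels.

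Named were the 3 members, tested passenger strands, some of the called members of 3 lists and the 5 miRNAs most correlated with a member. Of the 5 for miR-29b* only some are printed. The members and lists were chosen with earlier results of these data known. Alternatives covered scaling, background correction, summarisation, probe filter, floor, blocks and leaving out arrays. Array names carry no arm, so they were matched to the -3p strands in RefSeq and starred names to the 5p strands.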

Additional observations from a re-analysis of the deposited data

Results flagged for a closer look

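The response of the passenger strand miR-29b* to 24 h of tunicamycin passed the test of a difference between the genotypes. The ATF6aKO response minus the wild type response was 0.76 on the log2 scale (limma, adjusted p = 0.0479), from a wild type difference of -1.19 and an ATF6aKO difference of -0.42. The value rests on 1 probe, and the treated arrays of replicate 2 were not well above background. The strand passed the filter on low signal only through the untreated groups, where it was high, and its wild type level at 24 h lay near the floor. Over the alternatives the call held in 7 of 27, and no cause was tested. These alternatives include the summed signals and the deposited table, whose miR-29b* values hold the sum of miR-29b and cannot decide the question. No miR-29 member met the same condition.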

How the results depend on the processing

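The 3 members were called in none of the comparisons as reported, and in 295 of 304 pairs of a comparison and an alternative the count stayed 0. Without scanning run 4, an alternative added after seeing the data, as were both settings that keep the dim tiles, each treated group had 1 array, assumed to vary like the untreated ones, which alone set the spread, and 1 member was called for wild type 12 h against untreated (miR-29a, turned to 0.25), 1 for wild type 24 h against 12 h, 3 for untreated ATF6aKO against wild type and 2 for the genotypes at 24 h. For untreated ATF6aKO against wild type, 3 members were called with only the groups compared (the same fit as without run 4), 1 with the scanning run as a block and 1 with scaling to the median of probes well above background. Leaving out 1 array gave 0 to 1 members for ATF6aKO at 12 h against untreated and 0 to 1 for ATF6aKO at 24 h against 12 h, and 0 elsewhere. Of 901 single member values under an alternative, 796 kept their direction and side of the threshold, and 91 more only changed sign without being called. Alternatives that added a block or left out arrays of other groups could not change a direction.

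For miR-29b*, whose wild type falls held in 19 of 26 alternatives at 12 h and 21 of 26 at 24 h, the 24 h value turned to 0.12 after normexp and to 0.037 in the deposited table. Its difference of 24 h responses turned to -0.29 with scaling over all probes, -0.15 with summed signals and -0.14 in the deposited table. The summed signals and the deposited table are among the alternatives counted here. Where miR-29b* was detected, its values in both hold the sum of miR-29b. They therefore cannot decide how miR-29b* itself changed. Scaling over all probes shifted the median of all miRNAs at 12 h by -0.32 in wild type and by -0.73 in ATF6aKO cells. The members then stood at -0.64, -0.54 and -0.23 in wild type and at -1.50, -1.52 and -1.06 in ATF6aKO cells (miR-29a, miR-29b, miR-29c). No miRNA was called by limma in any comparison under it, with 13 and 10 at an unadjusted p under 0.05 in these 2 comparisons.

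Same-numbered arrays deviated together in the 7 pairs of groups on 1 slide (correlation from 0.73 to 0.95), where the number coincides with the scanning run, and against each other in the 8 pairs across slides (from -0.64 to -0.39). Within a slide the numbers thus pair the arrays by run, and across slides they do not. With the replicate block over all 12 arrays, 0 members were called in every comparison. A block for the scanning run could not be fitted for treated against untreated cells, since no run held both. Normexp used each spot's median signal. The causes of these changes were not tested.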
